A study of Homo sapiens with 6 samples.

Results

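TRiC, also called CCT, is the chaperonin of the eukaryotic cytosol. It was studied here through the transcripts of its 8 subunit genes (TCP1, CCT2, CCT3, CCT4, CCT5, CCT6A, CCT7 and CCT8), which were chosen by gene symbol alone and make up 8 of the 26255 genes measured by RNA-seq. The cells were 22RV1, a human castration-resistant prostate cancer line, all grown in the same serum-containing medium. 3 samples received the vehicle DMSO and 3 received 10 nM bruceantin (BCT), a plant quassinoid known as an inhibitor of protein synthesis, and RNA was taken after 24 h. The samples come from 1 cell line at 1 dose and 1 time, and the labels do not say whether they were separate cultures, so the p-values measure the spread between these samples, which may be technical.

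TRiC is built of stacked rings, each holding one copy of every subunit in a fixed order, and the subunits bind and hydrolyse ATP to close a chamber around an unfolded protein. Each subunit differs in its substrate-binding surface, so the complete set is needed for the working complex. Actin and tubulin are its best known substrates, and prefoldin hands them over to it.

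Values were FPKM as deposited, a unit that scales a gene's fragment count to its transcript length and to the fragments mapped in the sample, and differences are given as log2(FPKM + 0.1) in BCT minus DMSO. All 8 subunits were among the 12729 genes tested with limma, those averaging 1 FPKM or more over the 6 samples. A gene is said to have risen or fallen where its Benjamini-Hochberg adjusted p was below 0.05, and it is said to have passed the fold threshold where its absolute log2 difference was also above 0.85. The sum of all FPKM ran from 1169650 to 1572320 in the DMSO samples and from 757534 to 799838 in the BCT samples, and 1 small RNA gene, MIR6087, took 43.5 to 55.3% of it in DMSO and 31.7 to 32.5% in BCT. The median log2 difference of all tested genes was -0.04 as deposited, 0.72 after every sample was rescaled to the same FPKM sum and 0.34 after rescaling without MIR6087, so the sign of a small difference depends on the scaling. BCT replicate 1 stood closer to the DMSO samples than the other BCT samples did (Pearson r of log2 levels with DMSO of 0.921 to 0.925, against 0.887 to 0.894), and values without it are given where it mattered. All 8 prostate lineage markers examined reached 1 FPKM, against 2 of 8 markers of other cell types (ALB and COL1A1), and the leukocyte gene PTPRC and the endothelial gene PECAM1 stayed near 0.

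The subunit transcripts were abundant and moved little. Their mean levels lay between the 94.4 and 98.0 percentiles of the tested genes, and none passed the fold threshold, which 31.6% of all tested genes did (17.8% lower and 13.9% higher). By adjusted p alone, TCP1, CCT3, CCT4, CCT6A and CCT8 fell, and CCT2, CCT5 and CCT7 did not pass the test. That is 5 of 8 subunits lower and 0 higher, where 82.1% of all tested genes passed, 42.8% lower and 39.3% higher. The median difference of the 8 was -0.14, and their median absolute difference was 0.14 against 0.58 for all tested genes. These signs hold for the values as deposited and with median-of-ratios or upper-quartile scaling, under which CCT6A and CCT8 missed the threshold and CCT2 rose. In contrast, all 8 differences were positive after rescaling to equal FPKM sums, 7 of 8 after rescaling without MIR6087 and 6 of 8 after quantile normalization. The median of all tested genes was then 0.72, 0.34 and 0.03, respectively.

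**Figure D1:**
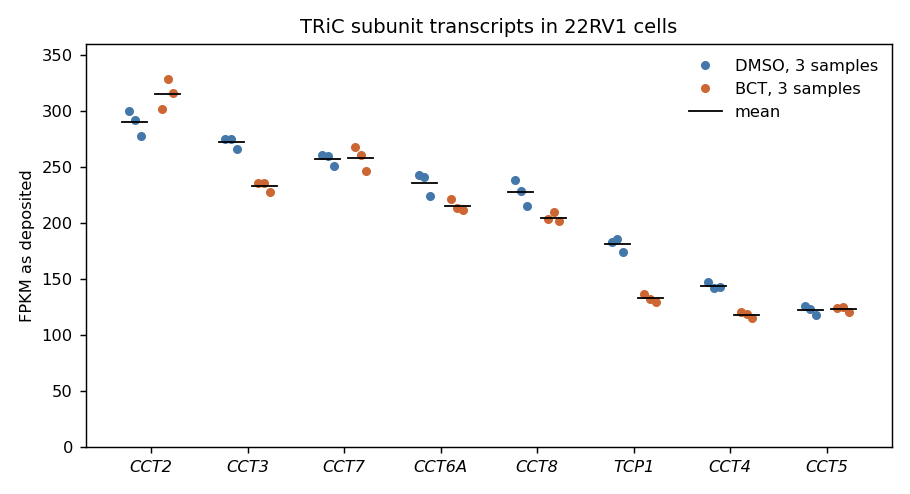
FPKM of each TRiC subunit in each of the 3 DMSO samples (blue) and 3 BCT samples (orange), with the group mean as a bar, ordered by the DMSO level. TCP1, CCT3, CCT4, CCT6A and CCT8 lay lower in every BCT sample, CCT2 lay higher in every BCT sample, and the groups overlapped for CCT5 and CCT7.

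TCP1, which encodes the alpha subunit that gave the complex its first name, showed the largest fall. It measured 183.3, 186.2 and 173.9 FPKM in the DMSO samples and 137.0, 131.9 and 129.9 FPKM in the BCT samples. Every BCT sample lay below every DMSO sample, and the mean went from 181.1 ± 6.44 to 132.9 ± 3.69 FPKM (SD, n = 3 each). The log2 difference was -0.45 ± 0.049 (SE), with a 95% interval from -0.56 to -0.33 and an adjusted p of 4.31e-05 (limma). Of all tested genes, 59.8% differed by more than TCP1 in absolute terms.

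CCT4, the delta subunit, measured 147.7, 141.7 and 142.5 FPKM in DMSO and 120.6, 118.6 and 115.4 FPKM in BCT. All BCT values were below all DMSO values, with a log2 difference of -0.28 ± 0.045 (SE; interval -0.39 to -0.18, adjusted p = 0.000415, limma). CCT3, the gamma subunit, measured 274.8, 275.3 and 266.4 FPKM in DMSO and 236.0, 236.1 and 228.1 FPKM in BCT. It fell by 0.22 on the log2 scale (SE 0.044, interval -0.32 to -0.12, adjusted p = 0.00163, limma), and its groups did not overlap either. The fall of TCP1, CCT3 and CCT4 passed the test whichever sample was left out.

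CCT8, the theta subunit, measured 238.3, 229.1 and 214.8 FPKM in DMSO and 203.2, 210.0 and 201.4 FPKM in BCT, with a log2 difference of -0.15 (interval -0.27 to -0.03, adjusted p = 0.0286, limma). CCT6A, the zeta subunit, measured 243.1, 240.8 and 223.9 FPKM in DMSO and 221.5, 213.6 and 211.4 FPKM in BCT, with a log2 difference of -0.13 (interval -0.25 to -0.01, adjusted p = 0.0424, limma). In both genes the lowest DMSO sample, replicate 3, was only slightly above the highest BCT sample. Neither passed the test without DMSO replicate 1, DMSO replicate 2 or BCT replicate 3 (CCT8 was then at -0.14 to -0.11 and CCT6A at -0.12 to -0.11), and CCT6A, at -0.12, also did not pass without BCT replicate 2.

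CCT2, the beta subunit and the most abundant of the 8, went the other way. It measured 299.7, 291.8 and 278.2 FPKM in DMSO and 302.1, 328.8 and 316.0 FPKM in BCT, so that its groups did not overlap. The log2 difference of 0.12 had an interval from -9.69e-05 to 0.25 and missed the threshold (adjusted p = 0.0604, limma). Without BCT replicate 1, the lowest of the BCT samples, it was 0.15 and passed. CCT2 was above 0 under every scaling tried, and it alone passed the fold threshold under one of them, at 0.89 after rescaling to equal FPKM sums.

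The epsilon subunit CCT5 and the eta subunit CCT7 gave overlapping groups. CCT5 measured 125.8, 123.0 and 118.1 FPKM in DMSO and 124.5, 124.6 and 120.9 FPKM in BCT, and CCT7 measured 261.0, 260.2 and 250.6 FPKM in DMSO and 268.0, 260.8 and 246.9 FPKM in BCT. As deposited, the intervals of their differences ran from -0.09 to 0.12 for CCT5 and from -0.11 to 0.12 for CCT7. On that scaling the intervals left out a change of the size seen for TCP1. After rescaling without MIR6087, however, the differences were 0.40 for CCT5 and 0.39 for CCT7, and with equal FPKM sums both were 0.78. Across the 8 genes, groups did not overlap for 5 subunits that were lower and 1 that was higher, and of all tested genes 85.3% had groups that did not overlap (44.3% lower and 41% higher).

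**Figure D2:**
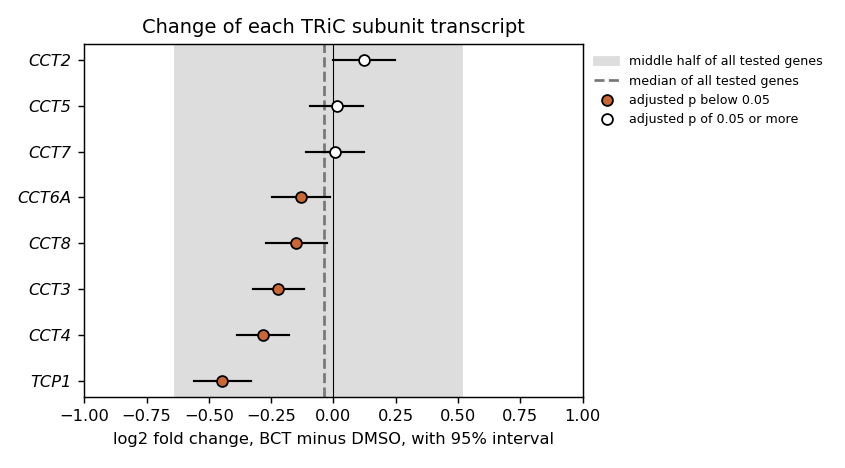
Log2 difference (BCT minus DMSO) of each subunit with its 95% interval, filled where the adjusted p was below 0.05, over a grey band that spans the lower to the upper quartile of all 12729 tested genes (-0.63 to 0.51). Every subunit lies inside the band, from -0.45 for TCP1 to 0.12 for CCT2.

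FPKM is scaled to transcript length, so the levels of the subunits are set side by side here, with limits. The annotation behind the lengths is not given. Of the 100-base stretches, 51.2% in CCT5, 15.85% in TCP1, 8.3% in CCT4 and 1.65% in CCT8 also occur in another gene. How far this shifts the order was not tested. In DMSO the order was CCT2, CCT3, CCT7, CCT6A, CCT8, TCP1, CCT4 and CCT5, and only CCT6A and CCT8 overlapped with their neighbour. In BCT the order was CCT2, CCT7, CCT3, CCT6A, CCT8, TCP1, CCT5 and CCT4, and no neighbours overlapped. CCT3 and CCT7 thus exchanged places, as did CCT4 and CCT5. The 8 levels summed to 1668.3 to 1773.5 FPKM in DMSO and 1570.0 to 1624.4 FPKM in BCT. The ratio of the highest to the lowest subunit went from 2.37 ± 0.013 to 2.67 ± 0.146, and the coefficient of variation between subunits went from 28.2 ± 0.18% to 35.5 ± 1.40% (SD, n = 3 each), without overlap between the groups.

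Each subunit was also set against the mean log2 level of the other 7 in the same sample. In this ratio a factor common to all genes of the sample cancels. On this scale 3 subunits were higher in every BCT sample: CCT2 by 0.30, CCT5 by 0.17 and CCT7 by 0.16 on the log2 scale. TCP1 (-0.35), CCT4 (-0.17) and CCT3 (-0.10) were lower in every BCT sample, and CCT6A (0.01) and CCT8 (-0.01) overlapped. These relative differences offset each other by construction, so subunits that fell place the others higher. As deposited, CCT5 and CCT7 each differed by only 0.01. TCP1 made up 10.5 ± 0.16% of the summed subunit FPKM in DMSO and 8.29 ± 0.19% in BCT. CCT2 made up 16.8 ± 0.13% in DMSO and 19.7 ± 0.84% in BCT. With 3 samples against 3, the smallest p an exact permutation test can give is 0.1, so these ratios are given as a description. Effects of a gene's GC content or length do not cancel in them. After a correction for both, the log2 difference of CCT3 was -0.11 instead of -0.22, beside a subunit median of -0.11.

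**Figure D3:**
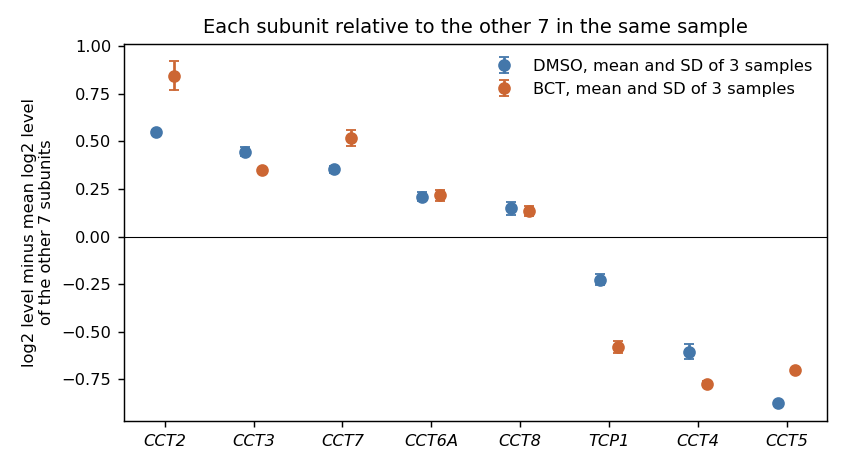
Log2 level of each subunit minus the mean log2 level of the other 7 in the same sample, as the mean and SD of 3 DMSO (blue) and 3 BCT (orange) samples. The BCT points are higher for CCT2, CCT5 and CCT7, lower for TCP1, CCT4 and CCT3, and level with DMSO for CCT6A and CCT8. The shifts offset each other by construction.

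**Figure D4:**
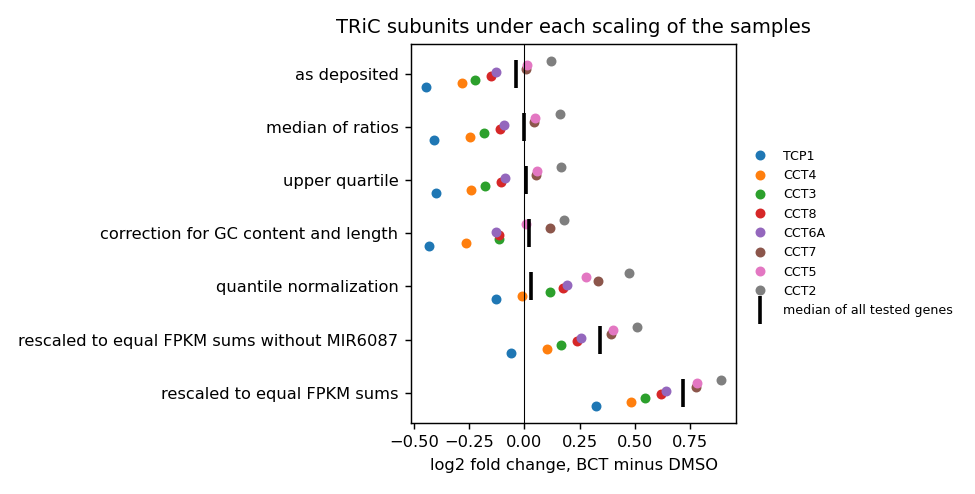
Log2 difference (BCT minus DMSO) of the 8 subunits under the different ways of scaling the samples, with the median of all tested genes as a bar. The whole set shifts with the scaling, from a subunit median of -0.14 as deposited to 0.63 with equal FPKM sums, while TCP1 stays the lowest and CCT2 the highest of the 8.

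The TCP1 value may rest partly on sequence shared with its neighbour. On hg19 the deposited files give TCP1 a merged interval on chromosome 6 from 160181291 to 160210735, which they also give to ACAT2, LOC100129518, SNORA20 and SNORA29. In GENCODE v44 on the same build TCP1 lies on the minus strand from 160199530 to 160210735 with 12 exons, and exons of ACAT2, a cytosolic acetyl-CoA acetyltransferase gene on the plus strand, cover 454 of its 2352 transcript bases (19.3%, from 160199691 to 160200144). The library kit does not mark strand, so reads from these bases cannot be told apart. ACAT2 measured 117.8, 101.4 and 99.8 FPKM in DMSO and 31.4, 26.7 and 23.7 FPKM in BCT, a log2 difference of -1.97 ± 0.107 (SE, adjusted p = 1.27e-06, limma) that passed the fold threshold under every setting tried. How much of the TCP1 difference, if any, comes from the shared bases was not tested. LOC100129518 at this locus fell from 2.27 ± 0.23 to 0.199 ± 0.110 FPKM (-3.04, adjusted p = 1.54e-05, limma). Its BCT mean was below 1 FPKM, so LOC100129518 was tested only because of its DMSO level. The hosted snoRNAs SNORA20 and SNORA29 were listed at 0 in every sample but 1 each (4.88 FPKM in DMSO replicate 3 and 3.37 FPKM in DMSO replicate 2).

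The other subunit genes lay on hg19, by the intervals in the files, at 69979208 to 69995357 of chromosome 12 (CCT2), 156278752 to 156316785 of chromosome 1 (CCT3), 62095262 to 62115806 of chromosome 2 (CCT4), 10250033 to 10266524 of chromosome 5 (CCT5), 56119378 to 56131682 of chromosome 7 (CCT6A), 73461364 to 73480150 of chromosome 2 (CCT7) and 30428643 to 30446118 of chromosome 21 (CCT8). CCT3 shares its interval with TSACC, which measured 2.31 ± 0.33 FPKM in DMSO and 3.87 ± 0.24 FPKM in BCT and has no exonic base in common with it. Stretches of 100 bases that also occur, in either orientation, in another annotated gene made up 51.2% of the CCT5 transcript, 15.85% of TCP1, 8.3% of CCT4, 1.65% of CCT8 and 0% of CCT2, CCT3, CCT6A and CCT7. For CCT5 and CCT4 the genes that share them are annotated as long non-coding RNAs on the opposite strand of the same locus.

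CCT6A has transcribed pseudogene copies elsewhere on chromosome 7, and these showed the largest differences among the genes named for TRiC. The 100-base window in which CCT6P1 comes closest to CCT6A, and its counterpart in CCT6P3, are printed to show how little can separate reads of the copies from reads of CCT6A: GRCh37, plus strand, at chr7:56122062-56122161 in exon 3 of CCT6A, chr7:65219514-65219613 in CCT6P1 and chr7:64525377-64525476 in CCT6P3, with capitals where a copy differs from CCT6A.
CCT6A: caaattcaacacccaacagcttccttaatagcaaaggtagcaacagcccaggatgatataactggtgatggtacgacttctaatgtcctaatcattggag
CCT6P1: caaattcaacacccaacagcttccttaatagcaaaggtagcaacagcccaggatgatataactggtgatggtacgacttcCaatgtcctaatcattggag
CCT6P3: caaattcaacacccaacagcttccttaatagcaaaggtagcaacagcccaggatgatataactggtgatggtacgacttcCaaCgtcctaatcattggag

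CCT6P1 differs from CCT6A at 1 base of this window and CCT6P3 at 2. Over the whole CCT6A transcript no 100-base stretch was identical to either copy, and the fewest mismatches were 1 for each copy. Of the 2485 stretches, 1.93% came within 2 mismatches of CCT6P1 and 2.82% within 2 of CCT6P3. CCT6P1 measured 4.22, 4.52 and 4.12 FPKM in DMSO and 21.7, 32.0 and 30.1 FPKM in BCT, a log2 difference of 2.66 ± 0.134 (SE, adjusted p = 1.03e-06, limma). CCT6P3 measured 2.03, 2.62 and 2.23 FPKM in DMSO and 15.1, 23.6 and 23.0 FPKM in BCT, a log2 difference of 3.09 ± 0.171 (SE, adjusted p = 1.33e-06, limma). All BCT values of both copies were above all DMSO values, while those of CCT6A were below. In relation to CCT6A, CCT6P1 went from 1.82% to 12.96% and CCT6P3 from 0.972% to 9.54%. Reads of one copy may have been counted to another, which was not tested. The deposited intervals ran from 65111924 to 65235797 for CCT6P1 and from 64498732 to 64535091 for CCT6P3. Other genes within these intervals were not looked for. CCT6B, the testis-enriched paralogue of the zeta subunit on chromosome 17, also rose from 0.842 ± 0.185 to 3.85 ± 0.36 FPKM (2.08 on the log2 scale, adjusted p = 5.90e-06, limma). Its DMSO mean was below 1 FPKM, so CCT6B was tested only because of its BCT level. CCT6P1, CCT6P3 and CCT6B were higher under every scaling tried. CCT8L2, another tissue-restricted relative, stayed below 1 FPKM in every sample and was not tested.

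Around the subunits, the folding pathway moved in several directions. Prefoldin, the hexamer that delivers nascent actin and tubulin to TRiC, had 3 of 6 subunits that rose and 0 that fell (39.3% and 42.8% of all tested genes), with a median of 0.16. PFDN4 passed the fold threshold, going from 20.6, 21.4 and 22.3 FPKM in DMSO to 37.6, 41.2 and 44.3 FPKM in BCT (0.93 on the log2 scale), PFDN1 rose by 0.70 and PFDN2 by 0.24, each with a positive sign under every scaling. PFDN5 (0.09), PFDN6 (0.08) and VBP1 (-0.05) did not pass the test. Summed prefoldin FPKM was 0.635 ± 0.025 of the TRiC sum in DMSO and 0.769 ± 0.004 in BCT, and the groups did not overlap. Of the tested phosducin-like genes, whose proteins bind TRiC and modulate its folding of client proteins, PDCL fell from 12.0 ± 0.66 to 6.04 ± 0.13 FPKM (-0.98, but -0.22 and short of the fold threshold with equal FPKM sums) and TXNDC9 rose from 18.0 ± 0.74 to 29.7 ± 1.32 FPKM (0.72). PDCL3 fell as deposited (-0.60) but was at 0.16 with equal FPKM sums, and PDCL2 was below 1 FPKM and not tested.

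The tubulin folding cofactors take tubulin from TRiC and assemble the alpha-beta dimer. As deposited, 4 of 6 members fell and 2 rose (42.8% and 39.3% of all tested genes), with a median of -0.72. With equal FPKM sums the list median was 0.05, beside 0.72 for all tested genes. TBCD, which binds beta-tubulin, measured 27.0, 28.5 and 26.7 FPKM in DMSO and 10.6, 7.70 and 8.46 FPKM in BCT (-1.62 on the log2 scale), and it passed the fold threshold under every setting. ARL2, the small GTPase that works with TBCD, fell by 1.07 on the log2 scale, and TBCB, which binds alpha-tubulin, also fell (-1.002). With equal FPKM sums ARL2 was at -0.30 and TBCB at -0.23, short of the fold threshold. TBCC, which triggers GTP hydrolysis by tubulin in the final step, rose from 20.02 ± 0.99 to 36.8 ± 1.58 FPKM (0.87), and TBCE rose by 0.36. TBCA fell as deposited (-0.44) but was at 0.33 with equal FPKM sums.

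Among the main substrates of TRiC, 8 of 13 tested actin and tubulin genes fell as deposited and 4 rose (42.8% and 39.3% of all tested genes). Their median was -0.57 as deposited and 0.20 with equal FPKM sums, beside 0.72 for all tested genes on the latter scaling. The fold threshold was passed by 5 lower and 1 higher (17.8% and 13.9% of all tested genes). TUBA1B, the most abundant alpha-tubulin gene, measured 1938.1, 2026.1 and 2175.4 FPKM in DMSO and 549.9, 366.6 and 376.0 FPKM in BCT (-2.27 on the log2 scale). TUBB, a main beta-tubulin gene, measured 657.1, 656.7 and 676.4 FPKM in DMSO and 185.8, 138.8 and 142.3 FPKM in BCT (-2.10). BCT replicate 1 was the least reduced of the BCT samples in both, and without it the differences were -2.46 for TUBA1B and -2.24 for TUBB. TUBB4B fell by 0.93 and ACTB, cytoplasmic beta-actin, by 0.97, whereas TUBB2A rose from 11.5 ± 0.52 to 30.7 ± 2.21 FPKM (1.41). These signs held under every scaling, but with equal FPKM sums TUBB4B was at -0.16 and ACTB at -0.20, short of the fold threshold. ACTG1, gamma-actin, overlapped between groups (-0.16). Genes of these families have near-identical coding sequences, so the split of reads between them is uncertain. Summed alpha- and beta-tubulin FPKM was 2.32 ± 0.17 times the TRiC sum in DMSO and 0.874 ± 0.110 times in BCT. For beta- and gamma-actin the ratio to the TRiC sum went from 1.71 ± 0.072 to 1.31 ± 0.146. Both ratios were lower in every BCT sample.

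**Figure D5:**
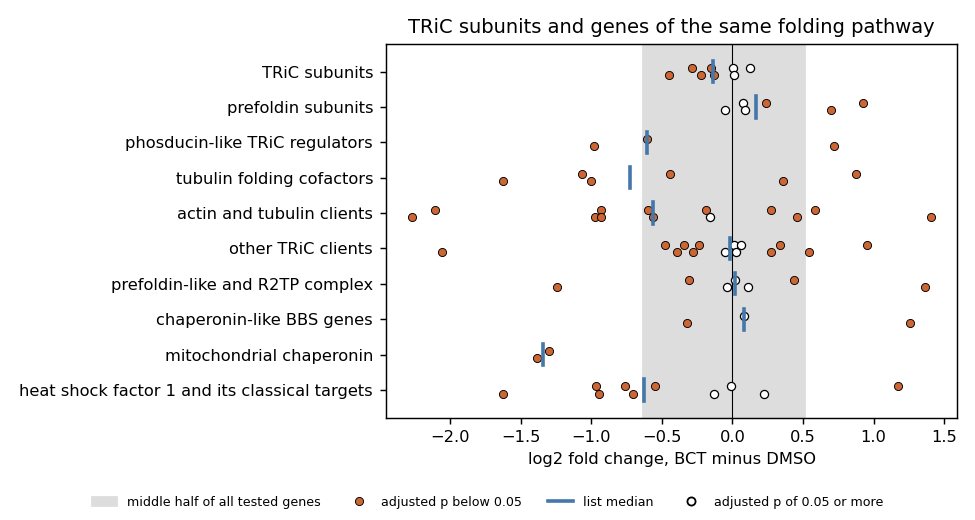
Log2 difference (BCT minus DMSO, values as deposited) of each tested gene in the TRiC, prefoldin, regulator, cofactor, substrate and related chaperone lists, filled where the adjusted p was below 0.05, with the list median as a bar and the quartile range of all tested genes in grey. The TRiC subunits form the narrowest of the lists with more than 3 genes, while the substrates run from -2.27 for TUBA1B to 1.41 for TUBB2A.

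Of 14 other proteins known to be folded by TRiC or to bind it, 6 transcripts fell and 4 rose as deposited. These shares were near those of all tested genes (42.8% and 39.3%). The median was -0.02 as deposited and 0.75 with equal FPKM sums, beside 0.72 for all tested genes on the latter scaling. CCNE1, which encodes the cell cycle regulator cyclin E1, fell from 4.59 ± 0.25 to 1.03 ± 0.17 FPKM (-2.06), and PPP2R2A, a regulatory subunit of protein phosphatase 2A, rose from 33.4 ± 1.24 to 64.9 ± 4.503 FPKM (0.95). STAT3 rose by 0.54, and these 3 kept their sign under every scaling. GNB1 (-0.39) and GNB2 (-0.24), which encode G protein beta subunits, fell as deposited and were positive with equal FPKM sums. In the prefoldin-like and R2TP complex, a co-chaperone assembly that builds large complexes such as RNA polymerases, 2 of 7 genes fell and 2 rose (42.8% and 39.3% of all tested genes). URI1 fell from 30.2 ± 1.68 to 12.8 ± 1.81 FPKM (-1.24) and PDRG1 rose from 33.4 ± 1.57 to 86.5 ± 7.87 FPKM (1.37) with signs that did not depend on the scaling, though URI1 was at -0.48 with equal FPKM sums, and the ATPase gene RUVBL2, the most abundant of the list, was at -0.04. RPAP3 rose by 0.43, and UXT was at -0.31 as deposited and at 0.46 with equal FPKM sums. The chaperonin-like genes of the Bardet-Biedl syndrome, whose proteins work with TRiC in assembling the BBSome, gave 1 gene that rose (BBS12, 1.26), 1 that fell as deposited (MKKS, -0.32, at 0.44 with equal FPKM sums) and 1 that did not pass the test. Among all tested genes 39.3% rose and 42.8% fell.

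The chaperonin of mitochondria differed from TRiC in the size of its change. HSPD1, its ring-forming subunit, measured 1043.7, 1001.9 and 902.6 FPKM in DMSO and 447.5, 380.5 and 372.5 FPKM in BCT (-1.30 on the log2 scale, adjusted p = 2.60e-06, limma). HSPE1, its lid, measured 534.0, 489.2 and 495.6 FPKM in DMSO and 215.9, 183.5 and 183.7 FPKM in BCT (-1.38, adjusted p = 1.25e-06, limma). The sum of both was 0.860 ± 0.026 of the TRiC sum in DMSO and 0.371 ± 0.035 in BCT, and the groups did not overlap. In a list of heat shock factor 1 and its classical targets, 6 genes fell as deposited, 1 rose and 3 did not pass the test. Of all tested genes, 42.8% fell and 39.3% rose. The list median was -0.63 as deposited and 0.14 with equal FPKM sums, beside 0.72 for all tested genes on the latter scaling. HSF1 itself rose from 27.8 ± 0.99 to 62.7 ± 1.83 FPKM (1.17), while HSPA8, a constitutive HSP70, went from 1022.0 ± 44.4 to 345.9 ± 133.5 FPKM (-1.63, and -1.93 without BCT replicate 1). The inducible HSP70 genes HSPA1A (-0.95) and HSPA1B (-0.96), near-identical copies whose reads may be split unevenly, also fell, and with equal FPKM sums they were at -0.19 and -0.20. HSP90AB1 went from 682.5 ± 26.7 to 402.8 ± 20.9 FPKM (-0.76, but 0.01 with equal FPKM sums). The signs of HSPD1, HSPE1, HSF1 and HSPA8 held under every scaling, with HSPD1 at -0.53 and HSPE1 at -0.62 with equal FPKM sums.

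RefSeq promoter windows (GRCh38.p14) were held for 7 of the 8 subunit genes, CCT6A being the one unmatched. These genes have 9 windows. The heat shock element core GAANNTTC, searched on both strands, occurred in 2 of the 9, that of TCP1 and the second of CCT2. It occurred in 6.77% of 35116 promoter windows of all genes. The 250 bases before each start of these 2 genes, which lay at the 2 ends of the range of changes, are printed. They lie at chr6:159789603-159789852 on the minus strand for TCP1 and, for the separate starts of CCT2, at chr12:69585209-69585458 and chr12:69585639-69585888 on the plus strand. Capitals mark GAANNTTC and CCAAT on either strand.
TCP1: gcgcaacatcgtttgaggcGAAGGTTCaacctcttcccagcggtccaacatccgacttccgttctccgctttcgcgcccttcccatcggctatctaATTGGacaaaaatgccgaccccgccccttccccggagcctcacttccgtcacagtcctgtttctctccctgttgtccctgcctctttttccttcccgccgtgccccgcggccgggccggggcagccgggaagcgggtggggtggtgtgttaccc
CCT2 first start: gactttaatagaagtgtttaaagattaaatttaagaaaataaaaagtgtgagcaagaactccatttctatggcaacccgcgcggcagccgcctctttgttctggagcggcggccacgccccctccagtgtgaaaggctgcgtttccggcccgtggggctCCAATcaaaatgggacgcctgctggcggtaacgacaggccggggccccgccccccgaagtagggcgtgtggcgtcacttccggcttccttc
CCT2 second start: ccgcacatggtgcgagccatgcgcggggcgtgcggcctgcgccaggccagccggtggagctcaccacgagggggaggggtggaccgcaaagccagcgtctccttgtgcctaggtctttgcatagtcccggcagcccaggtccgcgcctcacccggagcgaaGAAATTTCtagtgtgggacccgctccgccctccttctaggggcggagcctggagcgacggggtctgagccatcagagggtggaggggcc

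The GAANNTTC match began 231 bases before the TCP1 start and 89 bases before the second CCT2 start. The tail-to-tail form TTCNNGAA occurred in 1 of the 9 windows, that of CCT4, 38 bases into the transcript, against 7.74% of all windows. CCAAT occurred in 4 of the 9, in TCP1, CCT2, CCT3 and CCT8 (34.6% of all windows). The E-box CACGTG occurred in 0 of the 9 (7.26% of all windows). These are matches of letters, found in subunits that were lower and in the one that was higher. Whether they relate to the changes was not tested.

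Over the 6 samples, the genes whose log2 level ran closest to the mean of the 8 subunits were BARD1 (Pearson r = 0.996), FAM221A (0.993), CWC15 (0.992), ZSCAN2 (0.990) and PPP2R1B (0.989), and 247 genes (1.94% of those tested) had an r above 0.95. Each subunit is itself part of that mean, and those with an r above 0.95 are among the 247 genes. TCP1, CCT3, CCT4, CCT6A and CCT8 correlated with the mean at 0.9504 to 0.972, CCT7 at 0.256, CCT5 at 0.212 and CCT2 at -0.586. The samples fall into 2 groups and all genes share their scaling, so these values describe the samples and no p is given.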

How the data were processed

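RNA was sequenced from 3 DMSO and 3 BCT samples with a library kit that does not mark strand. The authors deposited 1 FPKM value per gene and sample, made from reads aligned to hg19. The submitters' processing notes name CASAVA, Trimmomatic 0.38, HISAT2 and HTSeq. The paper names StringTie for the assembly step after alignment, with gene levels computed as FPKM. The gene annotation is not given in the sources used here. No counts or read depth were used, so no counting interval is given, and FPKM sums differed between groups. The 12729 of 26255 genes averaging 1 FPKM or more were fitted as log2(FPKM + 0.1) with limma 3.58.1 in R 4.3.3 (moderated variances with a trend, Benjamini-Hochberg adjustment over all of them), without covariates. Log2 differences on this scale understate changes of low genes. The fit was tested on simulated data. Members and lists were chosen with earlier results of these data known, so no test was run on the list. All 8 members were named, as were all genes of the prefoldin, phosducin-like, cofactor, mitochondrial and paralogue lists, overlapping genes, the 5 most correlated genes and, from other lists, at most 5 genes with the largest changes past the test plus the most abundant one, and 1 gene under this rule is not reported here. CCT6P1 and CCT6P3 fall under the rule for paralogues and pseudogenes. Positions and shared stretches came from GENCODE v44 lifted to GRCh37, promoters from RefSeq. Alternatives covered pseudocount, filter, scaling, variance model, thresholds, a replicate block, each sample left out and, added after the data were seen, a loess correction for GC content and length.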

Additional observations from a re-analysis of the deposited data

How the results depend on the processing

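Scaling is the main limit. As deposited, 2263 genes passed the fold threshold lower and 1764 higher, 0 subunits passed it, 5 subunits fell and 0 rose by adjusted p, and the subunit median was -0.14. With equal FPKM sums the counts were 668 and 5614, 1 subunit passed the fold threshold, 0 fell and 8 rose. The subunit median was then 0.63, below the median of 0.72 for all tested genes. TCP1 (0.32), CCT3 (0.55), CCT4 (0.48), CCT6A (0.64) and CCT8 (0.62) changed sign. Without MIR6087 in the sums the counts were 1208 and 3370, and 0 subunits fell and 6 rose. The subunit median was then 0.25, below the median of 0.34 for all tested genes. CCT3 (0.17), CCT4 (0.10), CCT6A (0.26) and CCT8 (0.24) changed sign. Quantile normalization gave 1 subunit lower and 6 higher, with a median of 0.18 against 0.03 for all tested genes. CCT3 (0.12), CCT6A (0.19) and CCT8 (0.17) were then positive. Median-of-ratios and upper-quartile scaling each gave 3 lower and 1 higher. The GC and length correction gave 2 higher, CCT2 (0.18) and CCT7 (0.11), alone and with the replicate block, and brought CCT3 to -0.11. An FDR of 0.01 left 3 lower, and a test against the fold threshold left 0 lower, with 1392 and 1033 genes in all. Without a filter 2657 genes were higher, and with a minimum mean of 5 FPKM 1150 were. Leaving out each sample gave 2169 to 2516 genes lower and 1648 to 1912 higher, 0 subunits past the fold threshold, 3 to 5 subunits lower, 0 to 1 higher (CCT2 without BCT replicate 1), and medians from -0.18 to -0.11. Over these fits CCT5 ran from -0.013 to 0.033 and CCT7 from -0.020 to 0.040, turning negative without DMSO replicate 3 (both, CCT7 at -0.012) and without BCT replicate 1 (CCT7). Same-numbered samples deviated together only weakly (r from 0.03 to 0.12), so the numbers were not taken as a pairing. With the replicate block 2266 genes were lower and 1767 higher (4027 of the 4033 shared with the fit without it), and 4 subunits were lower, since CCT6A missed the threshold, with a median of -0.14. Of 176 subunit results under alternatives, 122 kept direction and side of the threshold. The causes of these shifts were not tested.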

Other observations

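Prostate lineage markers changed strongly in the same samples. KRT18, a luminal keratin, rose from 336.8 ± 3.98 to 1109.3 ± 41.7 FPKM (1.72) and KRT8, its partner, from 269.8 ± 9.10 to 609.9 ± 64.7 FPKM (1.17), whereas the androgen-responsive genes KLK3 (-2.95), KLK2 (-1.61) and TMPRSS2 (-1.59) fell, all with the same sign under every scaling. Over the 8 markers, 5 fell and 3 rose as deposited (42.8% and 39.3% of all tested genes), with a summed level of 797.8 to 802.5 FPKM in DMSO and 1777.1 to 1953.6 FPKM in BCT.

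Among markers of other cell types, ALB, a liver gene, measured 405.0 ± 15.1 FPKM in DMSO and 61.7 ± 6.35 FPKM in BCT, and COL1A1, a fibroblast collagen, measured 1.43 ± 0.18 and 5.83 ± 0.69 FPKM. Without ALB, the markers summed to 1.56 to 1.64 FPKM in DMSO and 5.18 to 6.55 FPKM in BCT. The T cell gene CD3E was at 0 in all DMSO samples. The snoRNA SNORA15, hosted by CCT6A, was listed at 0 except for 4.63 FPKM in DMSO replicate 2.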
